A study of Homo sapiens with 16 samples.

Results

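The 7 genes described here are tied to glucocorticoid action and were followed on 16 Illumina human Ref8v2 arrays of MCF10A cells: TSC22D3, FKBP5, SGK (current symbol SGK1), KLF9, ZBTB16 and DUSP1, which glucocorticoids are known to induce, and NR3C1, which encodes the glucocorticoid receptor. Members were the rows of the intensity table that carry any of these 7 symbols, which gave 11 of 20589 rows and 7 of 18190 symbols. The genes were chosen by known hormone response and by earlier results of these arrays, in which the intensities of TSC22D3 and SGK over time had stood out, so their time courses are given as a description with no test.

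MCF10A is a nontransformed, immortalized human mammary epithelial cell line that needs insulin and EGF to proliferate without serum. One group of cells was left untreated and collected at 0 hours, and parallel plates that received a HER2 kinase inhibitor at 1 µM were collected every 3 hours from 3 to 45 hours, with 1 array for each of the 16 time points. All cultures shared a serum-free medium with hydrocortisone at 1 µg/ml, insulin at 5 µg/ml and EGF at 10 ng/ml, and per the methods the medium was changed the day after plating and again when treatment began. No culture without hydrocortisone, and none carried through the series without inhibitor, was analysed here, so the inhibitor, the fresh medium and time in culture cannot be told apart.

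Hydrocortisone is a glucocorticoid. It enters the cell and binds the receptor, which rests in the cytoplasm with HSP90 and cochaperones, and the bound receptor moves to the nucleus and binds DNA at glucocorticoid response elements, mostly in enhancers away from promoters. TSC22D3 (also called GILZ) is a small leucine zipper protein that restrains inflammatory transcription factors, and FKBP5 is an HSP90 cochaperone that lowers the receptor's affinity for hormone and so closes a feedback loop. In mammary epithelial cells glucocorticoids are survival signals, and SGK, a serine/threonine kinase, and DUSP1, a phosphatase that inactivates MAP kinases, are known parts of that response. KLF9 and ZBTB16 (PLZF) are zinc finger transcription repressors. Several of these genes also answer to other signals, growth factor and MAP kinase signaling among them, so their levels alone do not report receptor activity.

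Promoter sequence was looked up because the receptor's element is known: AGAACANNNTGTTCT in its palindromic form, of which AGAACA is the 6-base repeat (read TGTTCT on the other strand). RefSeq promoters of GRCh38.p14 (250 bases before to 50 after a start) gave 18 windows for 6 of the 7 genes. None held the palindrome, which occurs in 1 of 35116 such windows, and 2 of 18 (11.1%) held the 6-base repeat on either strand, against 14.8% of all windows. A match is not evidence of binding, and a missing one says only that the letters are not in these 300 bases. The array's annotation does not say which start each probe reads. The pair with a match are shown, with the repeat in capitals, beside a TSC22D3 window, chosen because that gene had the widest range of levels of the 7:
SGK chr6:134177812-134178111, minus strand: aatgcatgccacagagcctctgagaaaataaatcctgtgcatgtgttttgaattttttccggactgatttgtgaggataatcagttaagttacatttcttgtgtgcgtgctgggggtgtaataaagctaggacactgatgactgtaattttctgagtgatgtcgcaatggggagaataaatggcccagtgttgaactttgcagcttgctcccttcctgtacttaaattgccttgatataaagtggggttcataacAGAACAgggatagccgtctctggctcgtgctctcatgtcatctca
FKBP5 chr6:35728534-35728833, minus strand: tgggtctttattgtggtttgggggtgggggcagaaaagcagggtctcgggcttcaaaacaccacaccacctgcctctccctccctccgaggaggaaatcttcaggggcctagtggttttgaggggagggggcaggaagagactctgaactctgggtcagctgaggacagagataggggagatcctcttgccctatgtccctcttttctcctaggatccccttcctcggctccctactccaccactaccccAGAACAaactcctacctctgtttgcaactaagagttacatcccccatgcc
TSC22D3 chrX:107717013-107717312, minus strand: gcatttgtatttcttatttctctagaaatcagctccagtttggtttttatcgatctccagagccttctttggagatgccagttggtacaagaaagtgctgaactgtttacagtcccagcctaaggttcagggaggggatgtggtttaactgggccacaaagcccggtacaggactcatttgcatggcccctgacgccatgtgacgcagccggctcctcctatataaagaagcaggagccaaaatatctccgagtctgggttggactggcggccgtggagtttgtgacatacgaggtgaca
In the SGK window the repeat starts at base 256, and in the FKBP5 window at base 251, the first transcribed base of the annotated start. The courses of these 3 genes differed, as given next.

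Intensities were corrected for background and quantile normalized, and levels are log2 intensities. A probe counted as above background on an array at a detection p under 0.05, and 11957 probes above background on at least 3 arrays were tested. The lowest detected single-probe level was 6.07 to 6.19 on this scale. Median deposited intensity of an array ran from 210 to 254, and 50.1% to 52.9% of rows of an array were above background; precision is limited by how few arrays there are. Of the epithelial markers, KRT5, KRT17 and CDH1 were above background on all 16 arrays, TP63 (TP73L in the file) on 10 and KRT14 on 1, while the brighter LAMB3 row, at intensities of 1658 to 4132, had no detection p under 0.05; it is a combined row, in which several probes share 1 entry. COL1A1, COL3A1 and ESR1 were above background on no array, PTPRC on 5 and the endothelial marker PECAM1 on 15, so KRT5, KRT17 and CDH1 fit the label, and the KRT14 and PECAM1 probes go against it. To summarize the courses, time points were joined into 5 windows (0 to 3, 6 to 9, 12 to 21, 24 to 33 and 36 to 45 hours). Time points of a window are not replicates of a condition, so a p-value here sets a change against the spread between neighbouring arrays, which may be technical.

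TSC22D3 had the widest range of the 7 genes on these arrays. Its main probe (ILMN_9893) was above background on all 16 arrays, with log2 intensities of 12.87, 11.39, 9.57 and 9.36 at 0, 3, 6 and 9 hours, 11.57, 11.50, 11.60 and 11.68 over 12 to 21 hours, 11.25, 11.51, 11.87 and 12.24 over 24 to 33 hours, and 13.58, 13.63, 13.65 and 13.57 from 36 to 45 hours. In bulk RNA, a different level in every cell and in a fraction of the cells cannot be told apart. The 6 and 9 hour arrays were below the other 14, and the 4 latest were above the 12 earlier ones. In the deposited intensities this was 7443 at 0 hours, 822 at 9 hours and 12894 at 42 hours. The 0 hour level was 11.4-fold above that at 9 hours, the highest level was 19.6-fold above the lowest (15.8-fold without background correction), and the 45 hour level was 1.62-fold that at 0 hours. Window means were 12.13 ± 1.05 (SD, n = 2 time points), 9.47 ± 0.15 (n = 2), 11.59 ± 0.07 (n = 4), 11.72 ± 0.43 (n = 4) and 13.61 ± 0.04 (n = 4). The windows of 12 to 21 and 24 to 33 hours overlapped and differed by less than their spread. The TSC22D3 probes ILMN_23548 and ILMN_20126 were above background on no array, at intensities of at most 207 and 201. Which transcript forms the 3 probes read is not given in the sources used here.

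**Figure D1:**
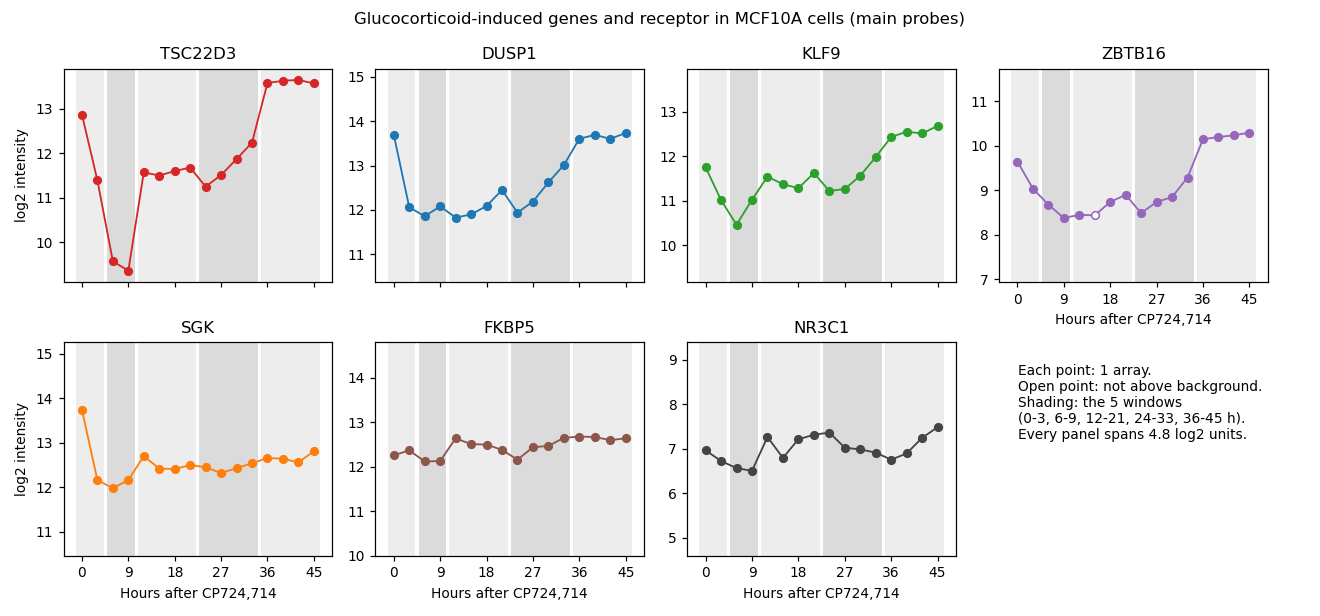
Log2 intensity (y axis) of the main probe of each gene against hours after addition of the inhibitor (x axis), 1 array per point, with every panel spanning the same number of log2 units and shading for the 5 windows. TSC22D3 runs from 12.87 at 0 hours to 9.36 at 9 hours and 13.57 at 45 hours, DUSP1, KLF9 and ZBTB16 are also high at both ends, SGK is high at 0 hours only, and FKBP5 and NR3C1 span less than 1 log2 unit; the open ZBTB16 point at 15 hours has a detection p above 0.05.

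DUSP1, the MAP kinase phosphatase, had a long low stretch between high ends. Its single probe (ILMN_20700) read 13.69, 12.06, 11.86 and 12.08 from 0 to 9 hours, 11.83, 11.90, 12.09 and 12.45 over 12 to 21 hours, 11.94, 12.19, 12.62 and 13.01 over 24 to 33 hours and 13.60, 13.69, 13.60 and 13.73 from 36 to 45 hours. Already at 3 hours it stood close to its lowest level, that of 12 hours, and it reached the 0 hour level again at 39 hours. Unlike TSC22D3, DUSP1 had no higher level at 12 hours than at 9 hours. Its highest level was 3.73-fold above its lowest, at 12 hours, and the 45 hour level was 1.03-fold that at 0 hours. KLF9, the transcription repressor, read 11.75, 11.01, 10.46 and 11.02 from 0 to 9 hours, 11.54, 11.37, 11.28 and 11.62 over 12 to 21 hours, 11.22, 11.26, 11.56 and 11.98 over 24 to 33 hours, and 12.43, 12.55, 12.51 and 12.68 from 36 to 45 hours (probe ILMN_2670). Its lowest array was that of 6 hours, it passed its 0 hour level at 33 hours, and its 4 latest arrays were above the 12 earlier ones. The range of KLF9 was 4.66-fold, and the 45 hour level was 1.9-fold that at 0 hours.

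ZBTB16, a zinc finger repressor used as a marker of glucocorticoid and progestin response, read 9.65, 9.04, 8.68 and 8.38 from 0 to 9 hours, 8.45, 8.44, 8.74 and 8.90 over 12 to 21 hours, 8.49, 8.74, 8.85 and 9.29 over 24 to 33 hours, and 10.15, 10.20, 10.24 and 10.30 from 36 to 45 hours. Each of the first 3 steps was downward, the lowest array was that of 9 hours, and the 4 latest arrays were above the 12 earlier ones. The range was 3.77-fold, or 2.83-fold without background correction, and the 45 hour level was 1.57-fold that at 0 hours. ILMN_11903, its only row, is a combined row whose intensity and detection p mix several probes, and its detection on 15 of 16 arrays is not that of a single probe.

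SGK was highest at 0 hours, before the inhibitor was added. Its probe (ILMN_2451) read 13.74 at 0 hours and 12.16, 11.98 and 12.16 at 3, 6 and 9 hours, then 12.70, 12.42, 12.41 and 12.50 over 12 to 21 hours, 12.45, 12.32, 12.43 and 12.54 over 24 to 33 hours and 12.66, 12.64, 12.56 and 12.81 from 36 to 45 hours. All 15 later arrays were below the 0 hour array, and the 45 hour level was 0.523-fold that at 0 hours, where TSC22D3, KLF9 and ZBTB16 were above their start. FKBP5, the cochaperone of the feedback loop, moved little: it read 12.26, 12.37, 12.12 and 12.13 from 0 to 9 hours, 12.64, 12.51, 12.50 and 12.38 over 12 to 21 hours, 12.16, 12.44, 12.47 and 12.65 over 24 to 33 hours and 12.68, 12.67, 12.60 and 12.64 from 36 to 45 hours (probe ILMN_16562). Its 6 and 9 hour arrays were the lowest of the 16, just under the 24 hour array, and its range was 1.48-fold.

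NR3C1, the receptor itself, was dim on this array. Its main probe (ILMN_4513) was above background on all 16 arrays at log2 intensities between 6.50 at 9 hours and 7.48 at 45 hours, with a median of 6.97, close to the lowest detectable level. It read 6.96, 6.72, 6.56 and 6.50 over the first 4 arrays, 7.26, 6.79, 7.21 and 7.31 over 12 to 21 hours, 7.36, 7.02, 6.98 and 6.91 over 24 to 33 hours, and 6.75, 6.89, 7.24 and 7.48 at the end. The windows from 12 hours on overlapped. Its 1.97-fold range was 1.36-fold without background correction, and the deposited intensities ran only from 272 to 332. The probes ILMN_6719 and ILMN_21266 of NR3C1 were above background on 2 arrays and on none. Of the 11 member rows, 7 passed the filter on low values, 1 for each gene, and 3 were never above background.

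Between consecutive arrays the members had few large steps. From 0 to 3 hours TSC22D3, SGK and DUSP1 were at least 1.7-fold lower, by log2 differences of -1.48, -1.58 and -1.63, at a step where 2.49% of the tested probes were. From 3 to 6 hours TSC22D3 alone of the 7 was, with a further -1.82 (3.50% of tested probes). TSC22D3 was also the only member at least 1.7-fold higher from 9 to 12 hours, by 2.21 (4.28%). From 33 to 36 hours TSC22D3 and ZBTB16 were at least 1.7-fold higher, by 1.34 and 0.86 (3.41%), and KLF9 and DUSP1 were higher by 0.46 and 0.59. Between 12 and 33 hours, and after 36 hours, consecutive arrays differed by at most 0.51 on the log2 scale in all 7 genes. The late high levels were preceded by smaller steps in one direction: TSC22D3, FKBP5, KLF9, ZBTB16 and DUSP1 were higher at each of the 3 steps from 24 to 33 hours, a pattern of 8.24% of tested probes, and the sum over these steps was 1.00 for TSC22D3, 1.07 for DUSP1, 0.75 for KLF9, 0.80 for ZBTB16 and 0.49 for FKBP5 on the log2 scale. The FKBP5 step from 27 to 30 hours was only 0.03, and its deposited intensity was lower at 30 hours (6457) than at 27 hours (6509). At 24 hours 6 of the 7 were lower than at 21 hours, against 50.7% of tested probes, by 0.05 to 0.51; the inferred level of the negative control beads also went from 188 to 175 between these arrays, and its part in the result was not tested.

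**Figure D2:**
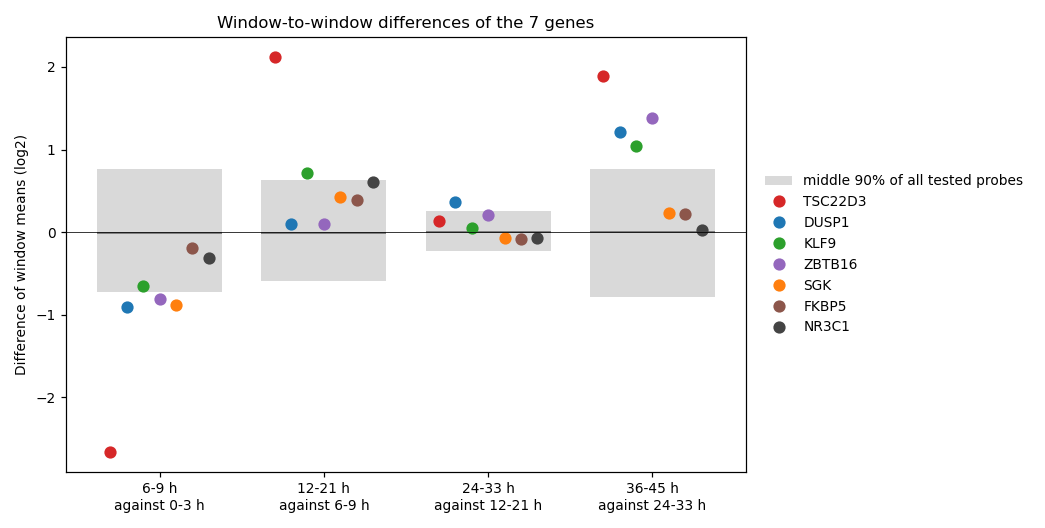
Difference of window means on the log2 scale (y axis) for the 7 genes in the 4 consecutive contrasts (x axis), 1 point per gene; grey bars span the middle 90% of the differences of all 11957 tested probes and the dark line is their median. In the first contrast TSC22D3 lies at -2.66, in the second at 2.12 and in the last at 1.89, where ZBTB16, DUSP1 and KLF9 lie at 1.38, 1.21 and 1.04.

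By windows, 6 to 9 hours against 0 to 3 hours put all 7 genes lower, 4 of them at least 1.7-fold (4.41% of tested probes): TSC22D3 by a log2 difference of -2.66, DUSP1 by -0.91, SGK by -0.88 and ZBTB16 by -0.81. ZBTB16 was less than 1.7-fold lower without background correction (-0.61), with an offset of 50 (-0.76) and under median scaling (-0.74). With cyclic loess it was at -0.84. The differences of KLF9, NR3C1 and FKBP5 were -0.65, -0.31 and -0.19, and the median of the 7 was -0.81, against -0.01 over all tested probes. SGK and DUSP1 stood at only -0.09 and -0.10 when 0 hours was left out, and at -1.67 and -1.72 when 3 hours was. TSC22D3 was at -1.92 and -3.40, KLF9 at -0.28 and -1.02 and ZBTB16 at -0.51 and -1.12 in the same order. From the 6 to 9 hour window to that of 12 to 21 hours only TSC22D3 was at least 1.7-fold higher (2.12; 3.00% of tested probes), KLF9 was higher by 0.72, NR3C1 by 0.61, SGK by 0.43, FKBP5 by 0.39, and ZBTB16 and DUSP1 by 0.10 each. Leaving out 6 hours put KLF9 at 0.43, and leaving out 9 hours at 1.00. From the 12 to 21 hour window to that of 24 to 33 hours all 7 differed by at most 0.37 in size. From the 24 to 33 hour window to that of 36 to 45 hours 4 of the 7 were at least 1.7-fold higher (4.93% of tested probes), TSC22D3 by 1.89, ZBTB16 by 1.38, DUSP1 by 1.21 and KLF9 by 1.04, and SGK, FKBP5 and NR3C1 by 0.23, 0.22 and 0.02. Under median scaling the FKBP5 difference was 0.00, that of NR3C1 -0.01 and that of SGK 0.03. In TSC22D3, KLF9 and ZBTB16, 3 of the 7, all 4 late arrays were above the 12 earlier ones, as in 8.16% of tested probes. Set only against 24 to 33 hours, SGK and DUSP1 joined them, 5 of 7 against 22.2%. In SGK the gap was narrow, at 12.54 on the 33 hour array and 12.56 on the 42 hour array. It was absent from the deposited SGK intensities, with 6404 at 33 hours and 5907 at 42 hours. Both arrays of 6 and 9 hours were below the other 14 in TSC22D3, FKBP5 and NR3C1, 3 of 7 against 4.38%. The margin was narrow in FKBP5, at 12.13 on the 9 hour array and 12.16 on the 24 hour array. For NR3C1 it was absent from the deposited intensities, with 274.0 at 39 hours and 276.6 at 6 hours. Of the 6 basal epithelial markers, TP63 and KRT17 also rose in the last contrast, by 1.15 and 0.73 (adjusted p = 1e-05 and 0.00079, limma). KRT5 fell by 0.18 and CDH1 was at 0.04 (adjusted p = 0.01 and 0.86, limma). The LAMB3 row and the KRT14 probe did not pass the filter on low values and were at 0.80 and -0.09, with no test. The part of these markers in the members' levels was not tested. Neighbouring contrasts share a window, so their values are not independent.

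The members formed groups by likeness of course, given here over 16 arrays that share the same steps, with no test. TSC22D3, KLF9, ZBTB16 and DUSP1 correlated at Pearson r of 0.86 to 0.95 with each other, and at 0.96 to 0.99 over the 12 arrays from 12 hours on. SGK correlated with these 4 at 0.47 to 0.64, FKBP5 at 0.51 to 0.78 and NR3C1 at 0.19 to 0.45. Over 12 to 45 hours SGK was at 0.62 to 0.77 with the 4, FKBP5 at 0.61 to 0.70 and NR3C1 at -0.11 to -0.04. Among all tested probes of other genes, the courses most like that of TSC22D3 were those of ZNF161 (current symbol VEZF1; r = 0.979), PTPLB (current symbol HACD2; 0.974) and NFIB (0.972). Closest to KLF9 were BCL6 (0.971), PTPLB (0.969) and KLHL2 (0.961), to ZBTB16 MGC17330 (0.993), EPAS1 (0.988) and ERBB3 (0.986), and to DUSP1 FRAT2 (0.974), CITED2 (0.970) and MGC17330 (0.953). SGK was most like PPM1D (0.944), NFIL3 (0.927) and SOX9 (0.914), FKBP5 like PBX3 (0.913), TTC3 (0.896) and PHKB (0.895), and NR3C1 like HMGB1 (0.870), PRKAA1 (0.857) and ZNF93 (0.811).

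Beyond the members, a list of 33 other genes known to be induced by glucocorticoids in some cell type was read, of which 26 passed the filter on low values and were tested with limma over all 11957 probes. TAT, PCK1 and G6PC, which are liver genes, THBD and RGS2 were above background on no array, and CD163 and the combined row of FOXO3 on 1 each. The FOXO3 row had deposited intensities of 1204 to 2437, and its detection p is not that of a single probe. From the 0 to 3 hour window to that of 6 to 9 hours 9 of the 26 fell and 1 rose at an adjusted p under 0.05, against 11.1% and 13.5% of all tested probes, and the median change was -0.48 against -0.01. BIRC3, an inhibitor of apoptosis, had a log2 change of -2.39 (SE 0.16, adjusted p = 1.9e-08 in limma), SPSB1 of -2.08 (0.31, 7.3e-05), LPIN1, a phosphatidate phosphatase, of -1.76 (0.19, 2.6e-06), and TNFAIP3, a brake on NF-kappaB, of -1.37 (0.32, 0.0034). MAOA, RHOB, FOXO1, ZFP36 and SCNN1A followed at -1.04, -0.99, -0.74, -0.66 and -0.45 (adjusted p from 0.0011 to 0.0043, limma). ANGPTL4, which inhibits lipoprotein lipase, was the gene that rose, by 2.05 (0.42, 0.0012); it was not above background at 0 hours, and the change was 0.95 without that array (0.016) and 3.16 without the 3 hour array (8.1e-08). Dropping 0 hours left 5 genes that fell, and dropping 3 hours gave 14 that fell and 2 that rose. The calls of BIRC3, SPSB1, LPIN1, RHOB and ANGPTL4, 5 of 10, stood whichever array was left out. Without 0 hours TNFAIP3 was at -0.71 (0.11), MAOA at -0.79 (0.061), FOXO1 at -0.45 (0.061) and ZFP36 at -0.29 (0.14), and without 9 hours SCNN1A was at -0.27 (0.099, limma). BIRC3 and ANGPTL4 are combined rows, whose detection p is not that of a single probe. That of BIRC3 was under 0.05 on 3 of 16 arrays. By that p its change runs between a window detected on 1 of 2 arrays and one not detected. Its deposited intensities at 6 and 9 hours were 478.5 and 540, where the inferred negative control level was 194 and 199. Several of these genes, BIRC3, TNFAIP3 and ZFP36 among them, are also known targets of NF-kappaB or growth factor signaling.

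From the 6 to 9 hour window to that of 12 to 21 hours 5 of the 26 rose and 2 fell, against 12.8% and 12.7% of tested probes. IL1R2, a decoy receptor for interleukin-1, rose by 1.45 (SE 0.15, adjusted p = 3.7e-06 in limma; a combined row above background at neither 6 nor 9 hours), BCL6 by 1.26 (0.41, 0.029), LPIN1 by 0.82 (0.17, 0.0013), MAOA by 0.59 (0.21, 0.045) and BIRC3 by 0.52 (0.14, 0.01). The combined row of BIRC3 was above background on no array of either window. ZFP36 and SLC19A2 each fell by 0.50 (adjusted p = 0.012 and 0.00097, limma). The calls of IL1R2, LPIN1 and SLC19A2 stood whichever array was left out, and those of BCL6, MAOA, BIRC3 and ZFP36 were lost without 6 hours (0.2, 0.3, 0.18 and 0.15). Dropping 6 hours left 2 that rose and 1 that fell, dropping 0 or 3 hours gave 8 and 4, and dropping 9 hours gave 4 that fell. Between 12 to 21 and 24 to 33 hours none of the 26 was called by limma, against 0.00836% of tested probes called higher and 0.0585% lower, and at an unadjusted p under 0.05 1 was higher and 0 were lower.

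From the 24 to 33 hour window to that of 36 to 45 hours 14 of the 26 rose and 1 fell, against 22.6% and 22.7% of tested probes, and their median change was 0.45 against 0.00. PDK4, which restrains pyruvate oxidation, rose by 2.76 (SE 0.34, adjusted p = 2.4e-06 in limma), from 5.90, 6.59, 7.36 and 8.21 to 9.49, 9.77, 9.72 and 10.10, and 3 of the 4 earlier arrays were above background. MAOA, which breaks down monoamines, rose by 1.84 (0.17, 8e-08), BCL6, a transcription repressor, by 1.63 (0.33, 0.00048), the CDK inhibitor CDKN1C by 1.35 (0.26, 0.00029), ERRFI1, an inhibitor of the EGF receptor kinase, by 1.34 (0.12, 7.8e-08) and CEBPD by 1.18 (0.12, 3.5e-07). FOXO1, LPIN1 and SCNN1A, an epithelial sodium channel subunit, rose by 0.72, 0.67 and 0.66 (adjusted p = 3.4e-05, 0.0004 and 4.9e-07, limma). IL1R2 fell by 1.24 (0.13, 2.4e-07), between levels of at least 7.75 and of at most 6.91, and 1 of the 4 late arrays was above background. Of the 15 calls in this contrast 13 stood whichever array was left out, those of GLUL and RHOB excepted. Other textbook responders were not called: PER1 was at 0.48 (adjusted p = 0.093), NFKBIA at 0.30 (0.095), and DDIT4 at 0.04 (0.82, limma). The metallothioneins MT2A and MT1X, whose near-identical copies a probe may not separate, gave no usable comparison: their deposited intensities were at least 58620 and 56840 on every array, at least 87.5% and 85.9% of the brightest row of the same array, where the scale may leave no room for a change. In this list 20 of the 26 were time-dependent by the spline of time at an adjusted p under 0.05, against 54.6% of tested probes.

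**Figure D3:**
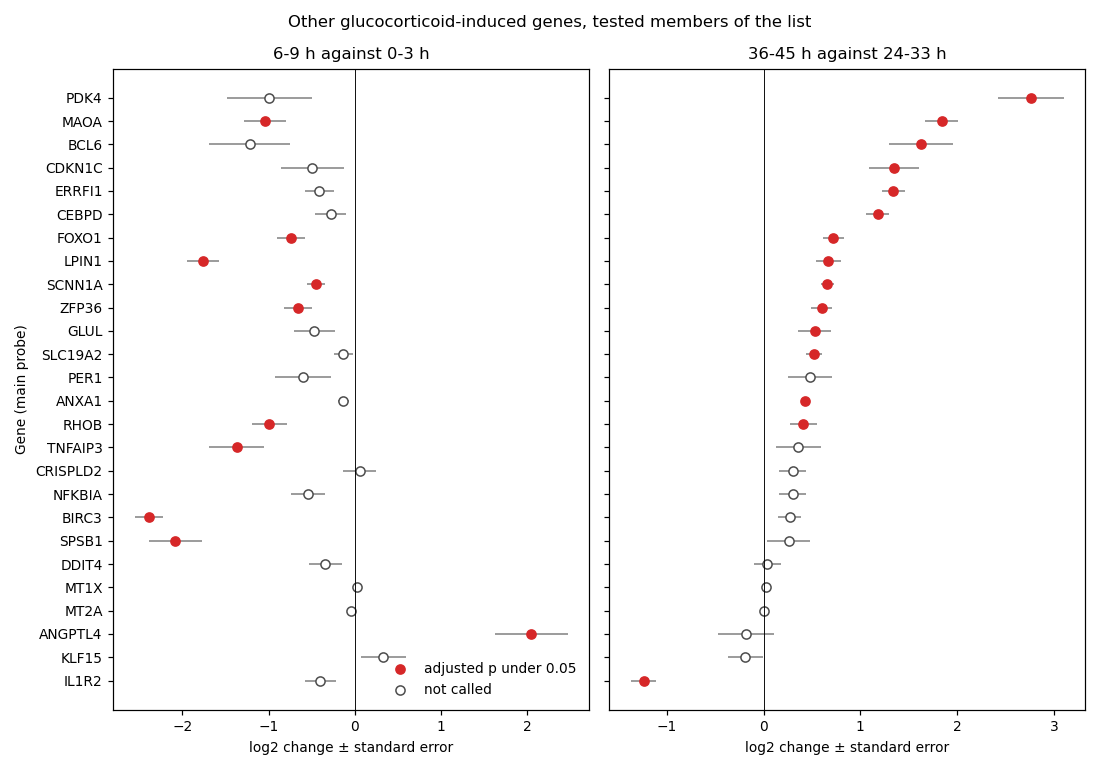
Log2 change with its standard error (x axis) of the 26 tested genes of the glucocorticoid-induced list (y axis, main probes) between the windows 0 to 3 and 6 to 9 hours (left), then 24 to 33 and 36 to 45 hours (right), with filled points for an adjusted p under 0.05 in limma. On the left 9 genes are called lower and ANGPTL4 higher, and on the right 14 are called higher, PDK4 farthest at 2.76, and IL1R2 lower.

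Of 13 genes that glucocorticoids are known to repress, mostly cytokines and proteases, 6 were tested. IL8, CXCL2 and CXCL1, which draw neutrophils, fell from the 0 to 3 hour window to that of 6 to 9 hours, with log2 changes of -2.01 for IL8 (SE 0.34, adjusted p = 0.00025 in limma) and -1.22 for CXCL1 (0.34, 0.013), while CXCL2 was not above background at 6 and 9 hours and was at least 3.23-fold lower (adjusted p = 0.017). The falls of CXCL1 and CXCL2 rested on the 0 hour array: without it CXCL1 was at -0.30 (0.37) and CXCL2 at -0.35 (0.51), while IL8 was at -1.15 (0.003). Of the 6, 3 fell and 0 rose in that contrast, against 11.1% and 13.5% of all tested probes. From the 6 to 9 hour window to that of 12 to 21 hours IL8 rose by 0.96 and CSF2 by 1.05 (adjusted p = 0.022 and 0.05), calls that were lost without the 6 hour array (0.26 and 0.12; that of CSF2 also without most other arrays), and IL1A, not above background from 12 hours on, was at least 2.57-fold lower (1.2e-07). Here 12.8% and 12.7% of all tested probes rose and fell. IL1A passed the filter on low values only through its 4 arrays from 0 to 9 hours, where it was higher, so its p-value is conditional on that. IL8 rose again from the 24 to 33 hour window to that of 36 to 45 hours, by 0.77 (0.24, 0.014), or by 0.65 without the 45 hour array (0.052), and none fell, against 22.6% and 22.7% of all tested probes.

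Of the 19 genes that handle the receptor and its hormone 16 were tested, and 11 of these were time-dependent by the spline, against 54.6% of tested probes. BAG1 and EP300 were called in no contrast. HSD11B2, the enzyme that inactivates cortisol, was above background on all 16 arrays and read 9.79, 9.98, 9.15 and 8.98 from 0 to 9 hours, 8.79, 8.80, 8.57 and 8.53 over 12 to 21 hours, 8.41, 8.28, 8.71 and 9.13 over 24 to 33 hours and 10.72, 10.87, 10.83 and 10.80 from 36 to 45 hours. The 4 late arrays were above all others. It fell by 0.82 from the 0 to 3 hour window to that of 6 to 9 hours (SE 0.19, adjusted p = 0.0038 in limma) and rose by 2.17 from the 24 to 33 hour window to that of 36 to 45 hours (0.14, 1.3e-09). HSD11B1, the enzyme of the opposite reaction, was above background on no array. Several chaperones were high where HSD11B2 was low, and others were not. FKBP4, the HSP90 cochaperone that competes with FKBP5, rose by 0.83 (0.12, 3.6e-05) early and by 0.42 (0.10, 0.0044) at 12 to 21 hours. It fell by 0.52 (0.08, 2.9e-05) at 36 to 45 hours. HSP90AA1 rose by 0.35 and 0.46 and fell by 0.68 in the same contrasts (adjusted p = 0.021, 0.0015 and 7e-07, limma), and STIP1 and HSPA8 changed by 0.51 and 0.55 early and by -0.63 and -0.31 late. The dimmer tested HSP90AA1 probe was at 0.16, 0.20 and -0.30 in the same contrasts (adjusted p = 0.52, 0.33 and 0.044, limma). The dimmer tested HSPA8 probe was at 0.58 early and -0.29 late (0.0032 and 0.016). HSP90AB1 rose by 0.33 and 0.31 and was at -0.15 late (adjusted p = 0.025, 0.015 and 0.096, limma). PTGES3 was at -0.04 early, 0.48 at 12 to 21 hours and -0.51 late (0.89, 0.0067 and 0.00028). DNAJB1 differed from these, with -0.53 early and 0.19 late (0.00099 and 0.044). So did BAG1, at -0.51 and 0.39 (0.26 and 0.16), and the cochaperone UNC45A, at 0.06 and 0.53 (0.72 and 8.2e-06). Among the coregulators, CREBBP fell by 0.67 early (0.00023), NCOR1 rose by 0.67 (0.036), and NCOA3 rose by 0.52 late (3.5e-05). Of the 16 tested genes of this list 6 rose and 5 fell early (13.5% and 11.1% of all tested probes), 5 rose and none fell at 12 to 21 hours (12.8% and 12.7%), and 5 rose and 5 fell late (22.6% and 22.7%). The calls of FKBP4, HSD11B2, CREBBP and DNAJB1 early stood whichever array was left out, and those of HSP90AA1, HSP90AB1, STIP1, HSPA8, NCOR1 and NCOA3 were each lost without some array, HSP90AA1 at 0.23 (0.26) and HSPA8 at 0.37 (0.056) without 9 hours. All 5 calls at 12 to 21 hours were lost without 6 hours, FKBP4 at 0.21 (0.21) and HSP90AA1 at 0.33 (0.068). Late, 8 of 10 calls stood, those of DNAJB1 and NCOA1 excepted. For the late rise in HSD11B2 the 33 hour array already stood above the 27 and 30 hour arrays.

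**Figure D4:**
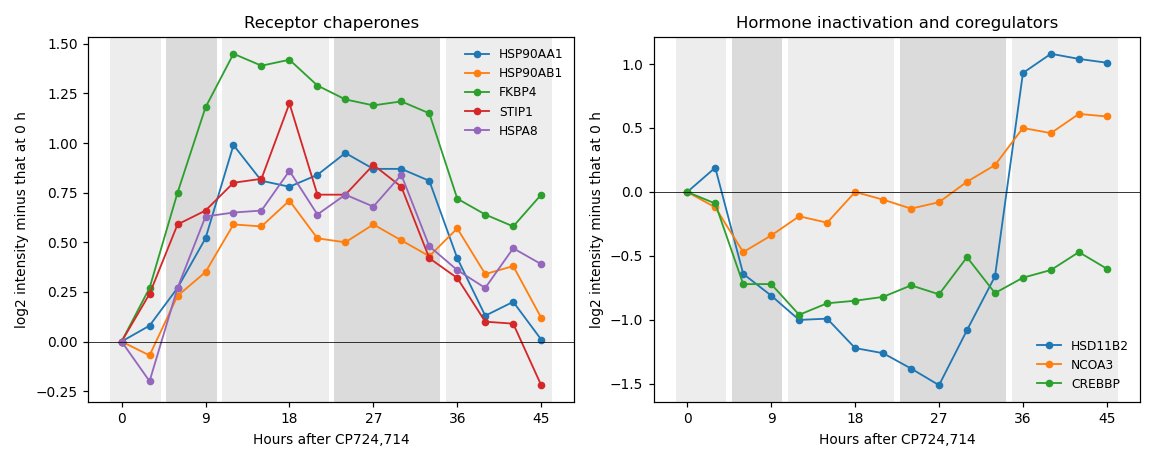
Log2 intensity minus that at 0 hours (y axis) against hours after addition of the inhibitor (x axis), 1 array per point. The left panel shows HSP90AA1, HSP90AB1, HSPA8, FKBP4 and STIP1, and the right panel HSD11B2 and coregulators. DNAJB1, PTGES3, BAG1 and UNC45A are not drawn. FKBP4 stays above its 0 hour level on every later array, and HSD11B2 lies below 0 from 6 to 33 hours and above it from 36 to 45 hours.

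Relatives of the members had courses of their own. TSC22D4 fell by 0.55 from the 6 to 9 hour window to that of 12 to 21 hours, where TSC22D3 was higher, and rose by 0.72 from the 24 to 33 hour window to that of 36 to 45 hours (adjusted p = 0.0011 and 1.8e-06, limma). In the same contrasts TSC22D1, a combined row, fell by 0.69 and rose by 0.43 (0.00093 and 0.0032). Its other tested row was at -1.32 and 0.31 (0.00049 and 0.21). TSC22D2 was not called in any of the 4 contrasts. SGK3 changed by -0.62 early and -0.59 late (0.012 and 0.00051), and SGK2 was above background on no array. NR3C2, the mineralocorticoid receptor, which also binds cortisol, was above background on 7 arrays, among them all 4 of 36 to 45 hours and neither of 6 and 9 hours; it was at least 1.23-fold lower at 6 to 9 than at 0 to 3 hours (0.02) and rose by 0.63 late (0.13, 0.00075). KLF13 was not called in any contrast. Of the 7 tested genes of this list, which takes in FKBP4 again, 1 rose and 2 fell early (13.5% and 11.1% of all tested probes), 1 rose and 2 fell at 12 to 21 hours (12.8% and 12.7%), and 3 rose and 2 fell late (22.6% and 22.7%). FKBP4 was the gene that rose early and at 12 to 21 hours. The early calls of SGK3 and NR3C2 were lost without the 0 hour array, at -0.34 and -0.56 (adjusted p = 0.23 and 0.12, limma), and that of TSC22D4 at 12 to 21 hours without the 6 hour array, at -0.36 (0.069). The difference between a member and its relative was not tested.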

How the data were processed

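The arrays measured total RNA of MCF10A cells at 16 time points with 1 array each, so no time point had a replicate. The authors deposited linear intensity values, not yet normalized, and with each a detection p-value against negative control beads. Summary software, background correction and build are not given in the sources used here. Of 20589 rows, 19092 had p-values that were whole multiples of 1 in 708 within 0.001 and stand for single probes, and 1497 were combined rows. The paper's methods name quantile normalization and no test.

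Starting from the deposited intensity, the negative control level of each array (166 to 199) was inferred from single-probe rows, normexp with an offset of 16 and quantile normalization were applied, and log2 was taken (R 4.3.3, limma 3.58.1; figures with matplotlib 3.10.9). The offset compresses dim probes. The main probe of a gene had the highest mean intensity. Windows were compared in a single limma fit with an intensity trend (11 residual degrees of freedom), and time with a natural cubic spline of 3 degrees of freedom, both with Benjamini-Hochberg adjustment over 11957 probes. Undetected single probes were given as bounds, with the dimmest detected single probe of an array as floor. The fits were run on simulated arrays with independent noise and known shifts in the last window. This checked the code and not the p-values of this series, in which the time points of a window are not replicates.

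The members, lists and windows were chosen with earlier results of these data known. Named besides members were the 3 probes most like each member, up to 10 called genes per contrast of the induced list, and up to 3 of the others, with a few more for context chosen after their values were seen. Symbols are those of the file, which were looked up in RefSeq (GRCh38.p14). A coregulator of the receptor list is counted but not reported here. Leaving out arrays for single list genes was added after the results were seen.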

Additional observations from a re-analysis of the deposited data

How the results depend on the processing

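No paired analysis was possible because each time point had 1 array, and a replicate block could not be fitted. Leaving out each array in turn, the number of the 26 tested induced genes that were time-dependent lay between 18 and 21 (20 with all arrays); those lower at 6 to 9 hours numbered 5 to 14 and those higher 1 to 2; those higher at 12 to 21 hours 2 to 8 and lower 1 to 4; those changed at 24 to 33 hours 0; and those higher at 36 to 45 hours 13 to 16, with 1 lower each time. With time as a straight line, 6 were called. With detection required on all 16 arrays, 0 were higher at 6 to 9 hours, 2 were higher at 12 to 21 hours and 0 were lower at 36 to 45 hours, since fewer genes were tested, and with median scaling 1 was lower at 12 to 21 hours. The other planned settings (no background correction, an offset of 50, cyclic loess, no filter, a spline with 5 degrees of freedom, 8 pairs of time points, any probe) kept these counts within 1.5 times. Of the 28 window differences of the members, 4 changed sign under median scaling and 0 under the other 3 treatments of the intensities; those 4 were between -0.01 and 0.06 there. Under median scaling the share of calls over all probes that were higher went from 54.9% to 65.1% at 6 to 9 hours, from 50.3% to 70.8% at 12 to 21 hours and from 49.8% to 37.3% at 36 to 45 hours. A probe near background, such as NR3C1, has a range set by the background correction.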
